A study of Homo sapiens with 6 samples.

Results

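MIST1, the basic helix-loop-helix (bHLH) transcription factor encoded by BHLHA15, was examined here together with the E proteins it can pair with, the ID factors that compete for those partners, and the bHLH repressors BHLHE40 and HES1. The members were fixed by name as 10 genes, and each probe set that the platform annotation assigns to 1 of these genes alone was taken, whatever its values. That gave 41 of the 41097 single-gene probe sets and 10 of the 19775 genes on the array. Of these, 29 probe sets of 9 genes passed the filter on dim probe sets described below, and 12 did not. RNA was measured on 6 one-colour Affymetrix arrays from 2 established human gastric carcinoma lines, AGS and HGC-27.

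In each line the arrays labelled MIST1 came from cells nucleofected with 3 µg of MIST1 plasmid and 1.5 µg of a GFP plasmid. The GFP control cells received 3 µg of empty vector with the same 1.5 µg of GFP plasmid. Both transfected populations were sorted 24 h later on GFP fluorescence to enrich highly transfected cells and were grown for another 24 h. Parental cells were not transfected. Expression of the plasmid was therefore transient, in a sorted subset of each line, and the promoter that drives it and the species of its MIST1 sequence are not given in the sources used here. There was 1 array for each condition of a line, so the 2 lines were the only replicates of a condition and p-values measure the spread between single arrays of 2 lines. In such bulk samples, fewer cells that express a gene and less RNA per cell cannot be told apart.

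Class II bHLH factors such as MIST1 bind DNA as dimers at E-boxes, either with themselves or with the widely expressed E proteins encoded by TCF3 (E2A, giving E12 and E47), TCF4 (E2-2) and TCF12 (HEB). ID proteins have the helix-loop-helix but lack the basic DNA-binding part, so an E protein held by an ID protein does not bind an E-box. In the stomach MIST1 marks mature zymogenic chief cells, where it acts on the secretory apparatus. HES1, a Notch target, and BHLHE40 (DEC1) are bHLH factors that repress transcription.

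The promoters of BHLHA15, which encodes the transfected factor, and HES1, whose probe set had the largest difference between the lines in the response to transfection among the members, are shown for their recognition letters. Each sequence is the 250 bases upstream of the start of the gene, from RefSeq on GRCh38.p14, with E-boxes (CANNTG) in capitals for BHLHA15 and the core recognised by the Notch effector RBPJ (TGGGAA, on either strand) in capitals for HES1. The BHLHA15 window is chr7:98211189-98211438 and the HES1 window chr3:194135898-194136147, both on the plus strand.
BHLHA15: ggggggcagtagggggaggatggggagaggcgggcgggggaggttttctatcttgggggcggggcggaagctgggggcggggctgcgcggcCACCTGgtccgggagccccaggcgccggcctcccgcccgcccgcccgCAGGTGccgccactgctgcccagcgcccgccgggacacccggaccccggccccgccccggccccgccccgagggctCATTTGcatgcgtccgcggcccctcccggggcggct
HES1: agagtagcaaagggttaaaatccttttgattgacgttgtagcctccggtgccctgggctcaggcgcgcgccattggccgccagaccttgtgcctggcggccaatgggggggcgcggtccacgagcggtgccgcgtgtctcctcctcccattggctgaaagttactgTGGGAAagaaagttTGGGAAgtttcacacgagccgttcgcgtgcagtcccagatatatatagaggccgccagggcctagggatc
The BHLHA15 window holds 3 E-boxes: one reading CACCTG begins 159 bases before the start, one reading CAGGTG 112 bases and one reading CATTTG 36 bases before it. At least 1 E-box was found in 62.2% of the 27305 promoter windows of this length and in 6 of the 10 member promoters. The HES1 window holds 2 copies of TGGGAA, at 84 and 70 bases before the start, and 3 N-boxes (CACNAG, the letters at which HES proteins bind, counted on either strand) at 165, 132 and 58 bases. TGGGAA was found in 21.1% of all windows and CACNAG in 32%. These matches are letters in a window and no binding was measured in this series.

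The 6 arrays had similar medians, 49.12 to 51.96 in deposited intensity. Arrays of the same line correlated at 0.968 to 0.995 over the probe sets tested, and arrays of different lines at 0.705 to 0.73 (Pearson r, log2 values). The lines differed in their markers: 7 of 7 epithelial markers lay above the median of all values (50.53) on every AGS array and 2 or 3 of 7 on the HGC-27 arrays, whereas 2 or 3 of 7 mesenchymal markers did on AGS arrays and 6 or 7 on HGC-27 arrays. In HGC-27 the keratins KRT18 and KRT19, which define simple epithelia, were at 5.90 to 35.8. The keratin KRT8 of the same list was not low there, at 1349.5 to 1562.1, and CLDN7 was at 121.53 to 150.63. Of 6 leukocyte and endothelial markers on the array, 3 were above the median on any array, and their summed intensity was 193 to 248.

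The probe set for BHLHA15 did not set the arrays labelled MIST1 apart from their controls. In AGS it read 72.5 on the MIST1 array, 75.9 in the GFP control and 66.3 in parental cells, and in HGC-27 it read 58.7, 61.9 and 41.1 in the same order. Only the HGC-27 parental value was under the median of all values. Since the sequence carried by the plasmid is not given, whether this probe set detects the plasmid's transcript was not tested. None of 7 measured genes linked to MIST1 in earlier work passed in MIST1 against the GFP control, in a fit that includes the parental arrays. The log2 differences were 1.58 for SERPINI1, 1.55 for RAB3D, 0.99 for RAB26, and between -0.11 and 0.08 for the other 4. With MIST1 against parental cells, 2 of the 7 were called higher and 1 lower, against 2.15% and 1.2% of all genes. These were RAB3D (1.61, limma adjusted p = 0.0346), RAB26 (1.14, limma adjusted p = 0.0410) and XBP1 (-0.53, limma adjusted p = 0.0446). In the GFP control against parental cells RAB3D gave 0.06, RAB26 0.15 and XBP1 -0.42, and none of these passed.

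All 3 E protein genes were measured in both lines, and their brightest probe sets were lower in AGS. For TCF12 the brighter probe set (208986_at) read 562 on the MIST1 array, 622 in the GFP control and 908 in parental cells of AGS. It read 3243, 3260 and 3344 in HGC-27, so every AGS array lay below every HGC-27 array. The log2 difference of AGS minus HGC-27 was -2.27 (SE 0.13, limma adjusted p = 1.21e-05). The second TCF12 probe set (238041_at) differed by -3.34 (SE 0.16, limma adjusted p = 4.3e-06). The other 2 TCF12 probe sets, at 23.5 or less on all arrays, did not pass the filter.

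TCF4, an E protein needed for plasmacytoid dendritic cells, had the largest fitted difference among the members. Its brightest probe set (212386_at) read 59.2 with MIST1, 81.7 in the GFP control and 122 in parental cells of AGS, against 1749, 1571 and 1134 in HGC-27. For 5 further probe sets at least 1 AGS array was below the median of all values, and all 3 AGS values of 228837_at (15.0, 4.72 and 12.5) were below the floor of 17.6 that was applied before taking logs. For 212386_at the log2 difference was -4.12 (SE 0.29, limma adjusted p = 2.88e-05). The probe sets 222146_s_at, 212385_at and 228837_at had fewer than 2 AGS arrays above the median. They passed the filter through the HGC-27 arrays alone, so the filter itself favoured a difference between the lines. The remaining TCF4 probe sets, which passed in either line, were also called lower in AGS.

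TCF3, which encodes E12 and E47, was read by 14 probe sets, of which 10 passed the filter. The brightest (213811_x_at) read 2467, 2576 and 2381 on the MIST1, GFP control and parental arrays of AGS, against 3319, 3348 and 3529 in HGC-27, a log2 difference of -0.46 (SE 0.07, limma adjusted p = 0.00102). The TCF3 probe sets disagreed in size. Another 6 were called lower in AGS, at -0.48 to -1.91, with 209153_s_at at -1.91 (SE 0.08, limma adjusted p = 3.41e-06) and 215260_s_at at -1.90 (SE 0.20). One, 202648_at, was higher in AGS by 0.39 (SE 0.14, limma adjusted p = 0.0489). The log2 differences of 228052_x_at (-0.36) and 213809_x_at (-0.31) did not pass, although both also passed the filter through the HGC-27 arrays alone. The call of 202648_at was lost without the GFP control or the MIST1 array of either line (limma adjusted p = 0.158 to 0.367), and those of 209152_s_at and 209151_x_at without the GFP control array of either line (limma adjusted p = 0.0522 to 0.122). Of the 10 past the filter, 6 have names in _x_at, the mark of probes shared with other transcripts. The 4 that did not pass the filter reached 45.3 to 56.8 at most.

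The ID factors ran both ways. ID1 (208937_s_at) read 9899, 9941 and 8185 on the MIST1, GFP control and parental arrays of AGS, against 6518, 6047 and 5638 for HGC-27, a log2 difference of 0.62 (SE 0.05, limma adjusted p = 5.31e-05). ID2 (201565_s_at) gave 4329, 4588 and 3618 in AGS, against 3006, 3032 and 2542 in HGC-27, a difference of 0.54 (SE 0.06, limma adjusted p = 0.000207). Its second probe set, 201566_x_at, gave 0.62 (SE 0.07). ID3 (207826_s_at) gave 3313, 3361 and 2760 in AGS, against 4716, 4218 and 3906 in HGC-27, and was lower in AGS by a log2 difference of -0.45 (SE 0.06, limma adjusted p = 0.000867). The AGS and HGC-27 arrays did not overlap for any of these 4 probe sets. Of all probe sets tested, 34.0% had all AGS arrays above all HGC-27 arrays and 27.1% had them below, so this was common. ID4 was not above the filter on any of its 5 probe sets, with a highest value of 27.8 on any array.

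The repressors BHLHE40 and HES1 were higher in AGS. BHLHE40, a hypoxia- and clock-linked repressor (201170_s_at), read 1984, 1861 and 2119 on the MIST1, GFP control and parental arrays of AGS, against 651.00, 705 and 788 in HGC-27. The log2 difference was 1.48 (SE 0.09, limma adjusted p = 1.43e-05), and 201169_s_at gave 1.41 (SE 0.13). HES1 (203395_s_at) read 1608, 1524 and 3259 in AGS against 453, 465 and 156 in HGC-27, a difference of 2.64 (SE 0.49, limma adjusted p = 0.00307). The second HES1 probe set (203394_s_at) gave 2.94 (SE 0.25), and the third (203393_at) read at most 3.22. The AGS to HGC-27 ratio of 203395_s_at depended on the condition, at 3.55 on the MIST1 arrays, 3.27 on the GFP control arrays and 20.9 on the parental arrays.

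**Figure D1:**
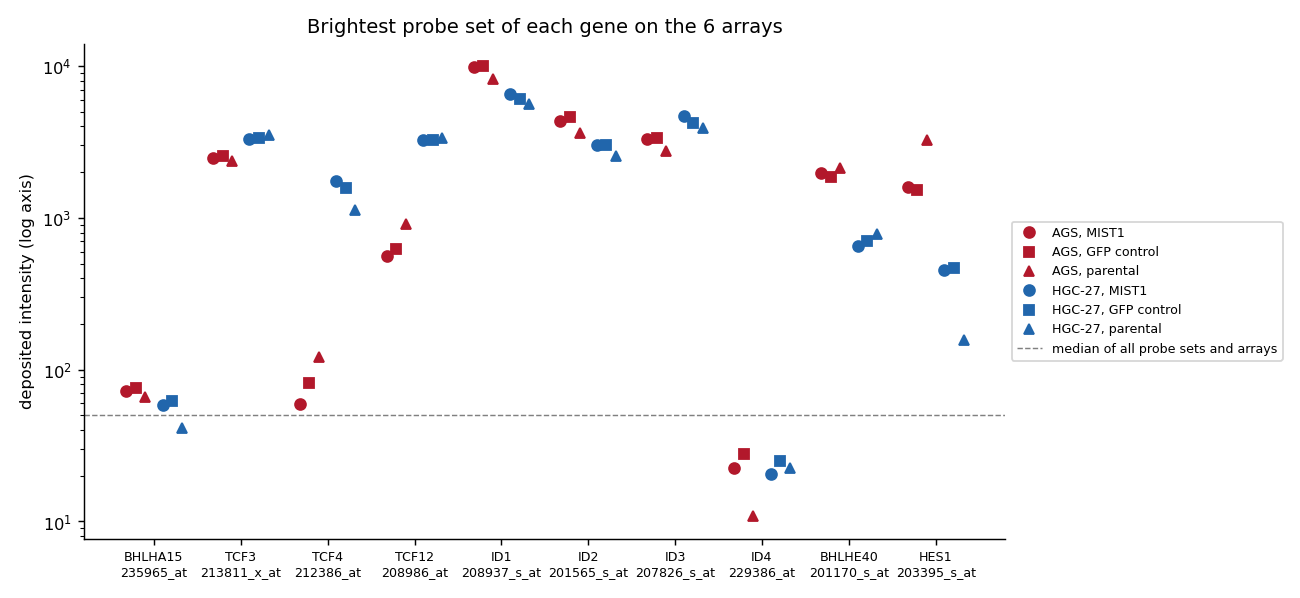
Deposited intensity (log axis) of the brightest probe set of each of the 10 genes on the 6 arrays, with red for AGS, blue for HGC-27, circles for MIST1, squares for GFP control, triangles for parental, and a dashed line at the median of all values, 50.53. TCF4 and TCF12 lie lower in AGS on all arrays, HES1 and BHLHE40 higher, and the ID4 probe set stays below the line. Heights of different genes are not comparable because their probes differ.

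In all, 26 of the 29 probe sets passed the test between the lines, 8 higher and 18 lower in AGS. Of the 18, 3 are the TCF4 probe sets that passed the filter through HGC-27 alone. Over all 25948 probe sets tested, 59.8% were called (32.9% higher and 26.9% lower in AGS), so most of the array differed too. By the brightest probe set of each gene, 8 of 9 member genes were called, against 60.7% of all genes, and BHLHA15 was the one not called at a log2 difference of 0.43 (SE 0.17, limma adjusted p = 0.0696). For 8 probe sets, BHLHA15 among them, all AGS arrays lay above all HGC-27 arrays, against 34.0% of all probe sets, and for 18 they lay below, against 27.1%. For this comparison the 3 conditions of a line stood in for replicates, so its p-values do not measure the spread between cultures of 1 line. The differences between the lines also stand beside the marker differences above, and their part in the result was not tested.

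**Figure D2:**
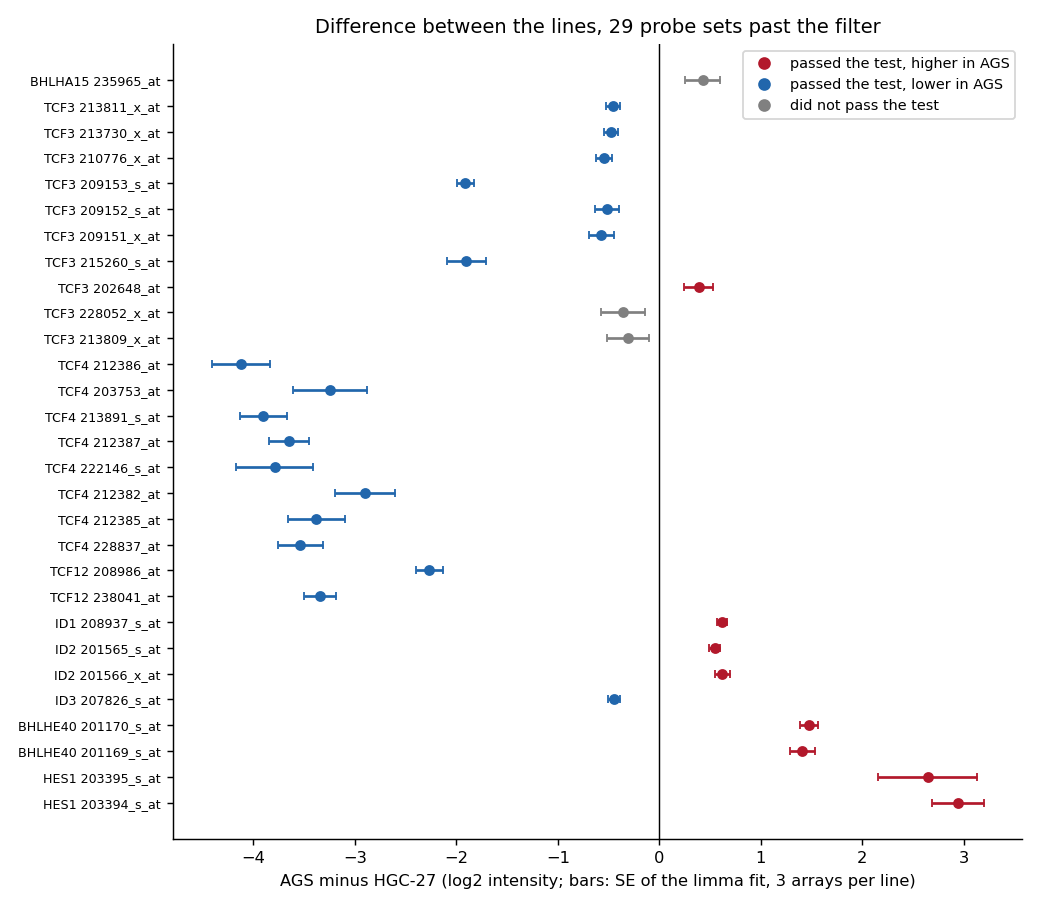
Log2 difference of AGS minus HGC-27 for the 29 probe sets past the filter, with the SE of the limma fit as bars (3 arrays per line). Blue points passed the test and are lower in AGS, red points passed and are higher in AGS, and grey points did not pass. All TCF4 and TCF12 points lie left of -2, and HES1 and BHLHE40 lie right of 1.

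Transfection with MIST1 was then compared with the GFP control, the comparison that the study set up to remove effects of transfection. No member was called, and neither was any of the 25948 probe sets (0% called). At an unadjusted p under 0.05 there were 0 member probe sets and 314 of all. This fit includes the parental arrays, so a difference between the lines in the response to transfection adds to its error. How far that lowers the count of 314 was not tested. A fit of only the 4 arrays of these conditions had 3059 of all probe sets at an unadjusted p under 0.05. It called 61 probe sets, none of them a member. The median log2 difference was -0.0022 over the 29 members and -0.022 over all probe sets, with a median size of 0.070 in members and 0.088 in all. The brightest TCF4 probe set was at 59.2 with MIST1 against 81.7 in the GFP control of AGS, and at 1749 with MIST1 against 1571 in the GFP control of HGC-27, so the lines ran in opposite directions. None of the 29 members past the filter reached 1.5-fold in either line, where 1.98% of all probe sets past it did in AGS and 2.47% in HGC-27. MIST1 lay on the same side of its GFP control in both lines for 12 of 29 members (41.4%), against 56.5% of all. HES1 (203395_s_at) gave log2 differences of 0.08 in AGS and -0.04 in HGC-27, with an SE of 0.60 in the fit that includes the parental arrays. ID1 gave -0.01 in AGS and 0.11 in HGC-27.

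**Figure D3:**
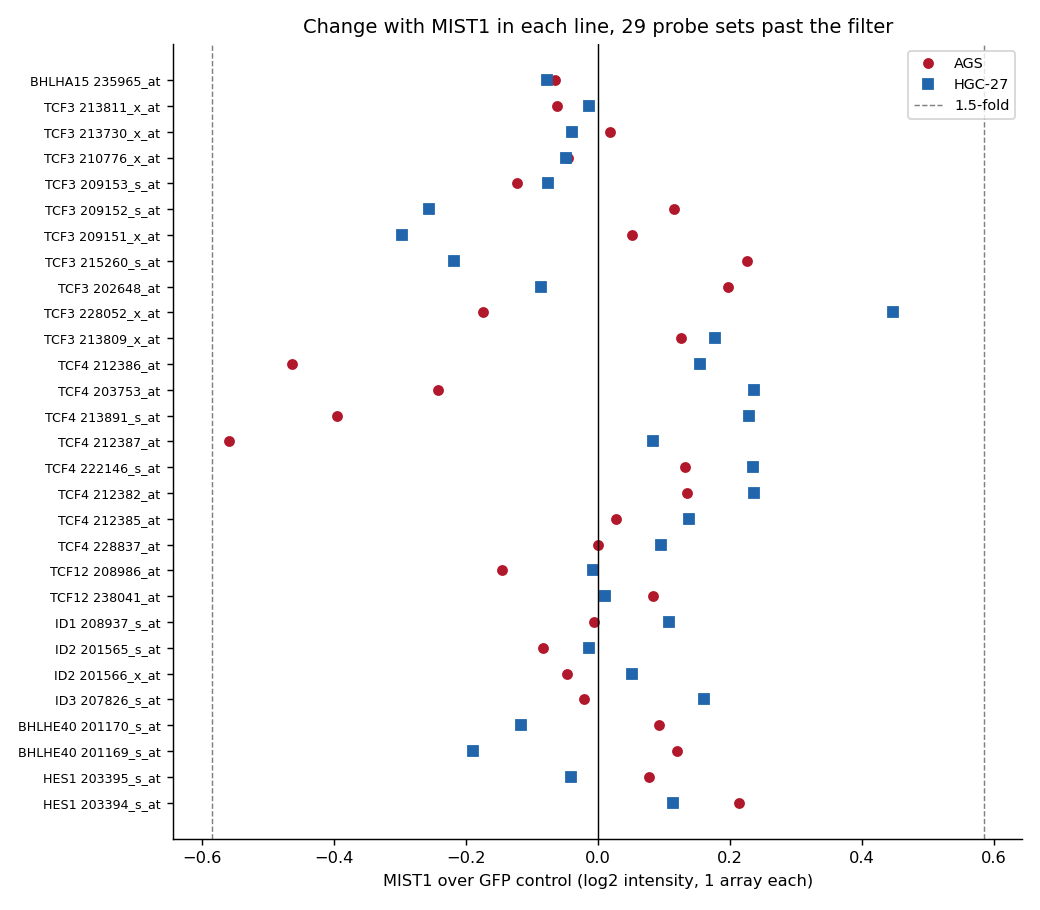
Log2 difference of MIST1 over GFP control for the 29 probe sets past the filter, with AGS as circles and HGC-27 as squares (1 array each). Dashed lines mark 1.5-fold in each direction. All points lie between the dashed lines, and the 2 lines lie on the same side of 0 for 12 of the 29 probe sets.

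Transfected cells were next compared with parental cells. The GFP control differed from parental cells in 0 of 29 members and in 0.659% of all probe sets (171), with 6 members (20.7%) and 5944 of all (22.9%) at an unadjusted p under 0.05. The arrays labelled MIST1 differed from parental arrays in 1 of 29 members, against 3.11% of all (1.78% higher and 1.33% lower). That member was TCF3 by 209153_s_at, which read 474 with MIST1 and 516 in the GFP control in AGS, where the parental array read 720.17. In HGC-27 it read 1818 and 1915, where the parental array read 2694. Against parental cells its log2 difference was -0.59 (SE 0.10, limma adjusted p = 0.0432) with MIST1 and -0.49 (SE 0.10, limma adjusted p = 0.0747) in the GFP control, 2 comparisons that share the parental arrays. The brightest TCF3 probe set gave -0.02 (SE 0.08) with MIST1, so the TCF3 probe sets disagree. The call was lost without the MIST1 array of either line (limma adjusted p = 0.201 without that of AGS and 0.195 without that of HGC-27). Without the parental array of 1 line, the parental value comes from the other line alone, while the transfected arrays of both lines still enter the fit. No count of calls is given for those fits.

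The lines differed in how HES1, TCF4 and TCF12 stood after transfection. The response was taken as the mean log2 of both transfected arrays of a line minus the log2 of its parental array, and the response of AGS minus that of HGC-27 was tested with MIST1 and GFP control arrays of a line standing in for replicates. Each response rests on the single parental array of its line. The limma call was lower in AGS for 8 of 29 members and higher for 0, against 10.6% of all probe sets (8.31% lower and 2.30% higher). By the brightest probe set, 3 of 9 genes were called, against 10.9% of genes. Without any 1 of the 4 transfected arrays, 0 members and 0 of all probe sets were called (limma, 1 residual degree of freedom), with adjusted p of 0.160 to 0.222 for the 8 members and the sign of each kept.

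For HES1 both probe sets were called. By 203395_s_at both transfected AGS arrays lay below the parental array, with a mean response of -1.06, while both transfected HGC-27 arrays lay above parental, with 1.56 (2.95-fold). The difference was -2.62 (SE 0.12, limma adjusted p = 0.00327). By 203394_s_at the values were 1790, 1543 and 3111 on the MIST1, GFP control and parental arrays of AGS and 303, 279.50 and 223 in HGC-27. Its responses were -0.90 in AGS and 0.38 in HGC-27, with a difference of -1.29 (SE 0.16, limma adjusted p = 0.0194).

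For TCF4, 5 of 8 probe sets were called. The brightest had responses of -0.81 in AGS and 0.55 in HGC-27, a difference of -1.36 (SE 0.28, limma adjusted p = 0.0374). The other 4 called were 222146_s_at at -1.97 (SE 0.21), 203753_at at -1.86 (SE 0.22), 212382_at at -1.46 (SE 0.21) and 212385_at at -1.38 (SE 0.18). The remaining 3 gave -0.97, -0.84 and -0.69 and did not pass. By 203753_at AGS read 67.1 with MIST1, 79.3 in the GFP control and 176 in parental cells, and HGC-27 read 1150, 975 and 707. For TCF12 the brighter probe set had responses of -0.62 in AGS and -0.04 in HGC-27, a difference of -0.58 (SE 0.11, limma adjusted p = 0.0359), and 238041_at gave -0.57 (limma adjusted p = 0.0595).

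Both transfected arrays lay below parental in AGS and above it in HGC-27 for 9 of 29 members, 7 probe sets of TCF4 and 2 of HES1, which is 31% against 17.7% of all probe sets. The opposite held for 1 of 29, against 6.91% of all. Both lay below parental in both lines for 8 of 29, against 19.9%, and above it in both for 7 of 29, against 30.5%. Both were at least 1.5-fold below parental in AGS for 7 of 29, all of them probe sets of TCF4, HES1 or TCF12. That is 24.1% against 6.24% of all, and both were as far above parental for 0, against 6.25%. In HGC-27 both were at least 1.5-fold above for 4 of 29, which is 13.8% against 10.4%, and as far below for 1, against 3.76%. The ID genes did not show this pattern: ID1, ID2 by 201565_s_at and ID3 were higher on both transfected arrays in both lines, with responses of 0.28, 0.30 and 0.27 in AGS, against 0.16, 0.25 and 0.19 in HGC-27, and their comparisons with parental cells did not pass. The other ID2 probe set, 201566_x_at, had responses of 0.01 in AGS and -0.08 in HGC-27. The counts out of 29 are of probe sets, which are not independent where they read the same gene. The 9 that fell in AGS and rose in HGC-27 came from 2 genes. The 7 at least 1.5-fold below parental in AGS came from 3 genes. Shares by gene were not computed for these patterns.

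Several other measures stand beside this result. The median of the same difference over all probe sets was -0.15 as deposited and -0.018 once the arrays were quantile normalized, and the median log2 difference of GFP control over parental was 0 in AGS and 0.14 in HGC-27. Relative to the median over all probe sets, the difference of HES1 203395_s_at was -2.47 and that of TCF4 212386_at was -1.21. After quantile normalization the AGS responses of both genes stayed negative and the HGC-27 responses positive for every called probe set, with 0.17 as the smallest (212382_at). The calls of TCF4 212386_at and TCF12 208986_at were lost (limma adjusted p = 0.0526 and 0.0909). The 3' to 5' ratio of the GAPDH control was 0.836, 0.826 and 0.854 on the MIST1, GFP control and parental arrays of AGS and 0.844, 0.862 and 0.883 in HGC-27. The summed epithelial markers were 51847, 52391 and 44988 in AGS, against 1824, 1829 and 1585 in HGC-27. Their part in the result was not tested, and sorting and transfection cannot be told apart because no label says that parental cells were sorted.

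**Figure D4:**
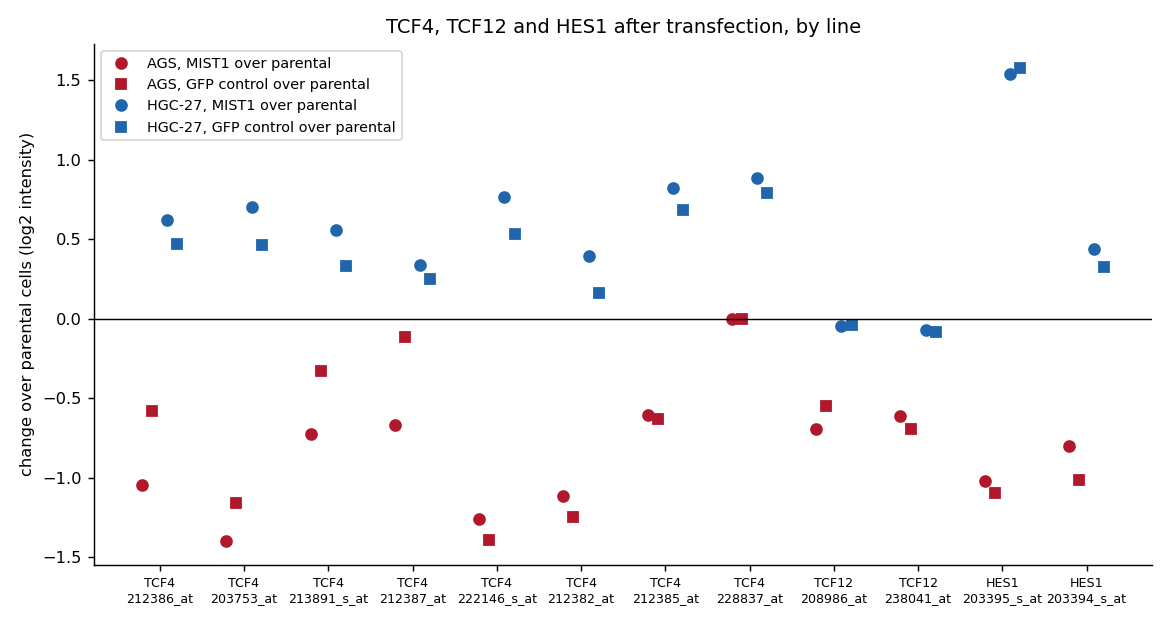
Log2 change over parental cells for the TCF4, TCF12 and HES1 probe sets past the filter, with AGS in red, HGC-27 in blue, circles for MIST1 and squares for GFP control (1 array each). TCF4 and HES1 points are at or below 0 in AGS and above 0 in HGC-27, and the TCF12 points lie near 0 in HGC-27 and below -0.5 in AGS.

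Genes of the surrounding pathways were read in the same fits, 1 probe set per gene. No gene of any of the 5 pathway lists passed in MIST1 against GFP control or in GFP control against parental cells. Among 21 measured Notch genes, which act upstream of HES1, 13 were higher and 4 lower in AGS than in HGC-27, against 33.3% and 27.4% of all genes, the shares that hold for each list below. For genes that passed the filter through 1 line alone, the filter itself favoured a difference between the lines. Such genes make up 1 of these 4 and are counted among the called genes of each further list. LFNG, a glycosyltransferase that modifies Notch receptors, differed by 3.14 and the ligand JAG1 by 2.56, while the receptor NOTCH3 differed by -3.97 and the ligand JAG2 by -3.89. In the difference of responses only APH1A, a gamma-secretase subunit, was called (-0.52, SE 0.11, limma adjusted p = 0.0396).

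In the BMP and TGF-beta list, which acts upstream of the ID genes, 28 genes were measured. Between the lines 11 were higher and 8 lower in AGS, 1 and 3 of them through 1 line alone. Among these are TGFBR2, a TGF-beta receptor seen above the median in AGS only, and the BMP antagonist NOG, whose AGS values were all below the floor. In the difference of responses 6 were called lower in AGS and 0 higher, against 8.12% and 2.81% of all genes, and the list's median was -0.36, against -0.12 over all genes. The ligand BMP4 read 145, 144 and 165 on the MIST1, GFP control and parental arrays of AGS and 316, 255 and 40.7 in HGC-27, a difference of -2.99 (SE 0.22, limma adjusted p = 0.00674). The BMP pseudoreceptor BAMBI gave 6151, 6027 and 4809 in AGS, against 3910, 3410 and 1019 in HGC-27, a difference of -1.50 (SE 0.12, limma adjusted p = 0.00733). Against parental cells BMP7 was higher by 1.06 on the log2 scale with MIST1, and gave 0.92 in the GFP control, which did not pass (limma adjusted p = 0.0728). The receptor ACVRL1 was above the median on the parental arrays only, at 58.5 in AGS and 64.3 in HGC-27, so no difference is given for it.

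Of other E protein partners, 28 of 34 listed bHLH genes were on the array and 11 passed the filter. TWIST1, a mesenchymal bHLH factor that pairs with E proteins, read 25.1, 22.0 and 22.8 on the MIST1, GFP control and parental arrays of AGS and 2091, 2112 and 2761 in HGC-27, so it passed the filter through HGC-27 alone. Of the 11, 2 were called higher and 3 lower in AGS, 1 and 2 of them through 1 line alone. LYL1 was higher in AGS by 0.73 on the log2 scale, and ATOH1, an intestinal secretory factor, passed the filter through AGS alone. In the difference of responses HAND1 (1.66) and MESP2 (0.98) were called higher in AGS. Of 13 further HES, HEY, DEC and TLE genes, 2 were higher and 6 lower in AGS, with HES2 at 2.26. Of the 6, HEY2 passed through HGC-27 alone, with all AGS values below the floor. Their difference of responses was called for TLE4 (0.62) and TLE1 (-0.41), both Groucho-type corepressors used by HES1. Of 10 E protein coregulators, 3 were higher and 3 lower in AGS, with the acetyltransferase KAT2B at 1.71, and none was called in the difference of responses. The corepressor RUNX1T1, 1 of the 3 lower, had AGS values of 8.62 to 17.8 and passed the filter through HGC-27 alone. With MIST1 against parental cells, where 2.15% of all genes were called higher and 1.20% lower, ATOH8 (1.21), HEY1 (0.58), MAML2 (1.03) and LFNG (0.99) were higher. In the GFP control against the same parental arrays ATOH8 gave 0.99, HEY1 0.62, MAML2 0.97 and LFNG 0.41, and none of these passed.

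The genes closest in pattern were ranked over the 6 arrays by Pearson r after each line was centred on its own mean, among 13737 other genes. BHLHA15 was closest to USP35 (0.9998), FAM32A (0.9996) and PEX7 (0.9996), with 974 genes at r of 0.95 or more. TCF4 was closest to ZCCHC10 (0.9982), LINC00648 (0.9964) and TTF1 (0.9955), with 144 such genes. HES1 was closest to NUS1 (0.9990), INTS6 (0.9985) and YME1L1 (0.9983), with 327. The 6 points share arrays and scaling, so high values of r over so few points are common, and these lists are descriptions.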

How the data were processed

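The authors deposited 1 linear intensity per probe set and array, read as linear because the values ran from 0.48 to 19070.49; the design text names dChip, and the background correction and scaling are not given in the sources used here. Gene names came from the platform annotation, with symbols updated through gene IDs. Intensity below the 25th percentile of all values (17.6) was set to it, and log2 values were used. Probe sets above the median (50.53) on at least 2 of 6 arrays were tested (25948 single-gene probe sets, Affymetrix controls left out). Models were fitted with R 4.3.3 and limma 3.58.1 (eBayes with trend), with the cell line as a block and 2 residual and 4.65 prior degrees of freedom for the comparisons of conditions, and with the 4 line-by-transfection groups and 4.17 prior degrees of freedom for the difference of responses, two-sided, Benjamini-Hochberg over all probe sets, threshold 0.05. The 2 lines are the replicates and share the numbers of the labels, and same-line arrays correlated at 0.968 or more. The scripts were tested on simulated data. The members and lists were chosen with earlier results of these data known. Named genes of the lists are at most the 2 largest in each direction that passed, or the largest where none passed, except that RAB26 and the values in the GFP control were added after the values were seen. The number of arrays limits the precision. Alternatives were other floors, filters, normalization, trend, block and leaving out each array. The probe set shared by ID2 and ID2B was left out.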

Additional observations from a re-analysis of the deposited data

Results flagged for a closer look

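The response to transfection differed between the lines, by the tested difference of AGS minus HGC-27, for 8 probe sets. For HES1 the log2 difference was -2.62 (203395_s_at) and -1.29 (203394_s_at). For TCF4 it was -1.36 (212386_at), -1.86 (203753_at), -1.97 (222146_s_at), -1.46 (212382_at) and -1.38 (212385_at). For TCF12 it was -0.58 (208986_at). The TCF4 probe sets 222146_s_at and 212385_at passed the filter through HGC-27 alone. The MIST1 and GFP control arrays of a line stood in for replicates, so the test does not measure the spread between cultures of a line.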

How the results depend on the processing

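Of the 8 members called in the difference of responses, 1 was called with a floor at the median or with no filter (HES1 203395_s_at in both), 5 without the variance trend, 3 with 1 probe set per gene, 6 after quantile normalization and 0 without any one transfected array, where 1 residual degree of freedom is left and the adjusted p was 0.160 to 0.222 for the called members, each with its sign kept. Without a parental array it could not be fitted. Over all probe sets 2754 were called (598 higher and 2156 lower), against 1597 (711 and 886) after quantile normalization, 151 with a floor at the median, 1835 with no filter and 621 without the trend. The 1 member called for MIST1 against parental cells became 0 with no floor, no filter, 1 probe set per gene, no variance trend or no replicate block, and 0 to 16 without each array, with 16 reached without either parental array, where the comparison rests on the other line alone. For GFP control against parental cells leaving out each array gave 0 to 15, 15 without either parental array. Between the lines 8 of 9 genes were called with 1 probe set per gene, and 23 to 27 probe sets without each array. BHLHA15 passed there with a floor at the median, quantile normalization or no trend (adjusted p = 0.0359, 0.0473 and 0.0382), TCF3 202648_at did not with no floor, no filter or quantile normalization, and HES1 203395_s_at did not with no filter (0.108). Over all probe sets, the 171 called for GFP control against parental cells became 52 with no floor, 505 after quantile normalization, 0 with a floor at the median, no filter, no trend or no replicate block, and 1586 with 4 arrays; the 807 for MIST1 against parental cells became 415, 1516, 441, 0, 0, 0 and 1954 in that order. Without each array the ranges of differences that changed sign were, for MIST1 against GFP control, BHLHA15 -0.17 to 0.031, BHLHE40 201170_s_at -0.11 to 0.085, HES1 203395_s_at -0.68 to 0.72, ID1 -0.022 to 0.12, ID3 -0.019 to 0.16, TCF12 208986_at -0.27 to 0.12, TCF3 213811_x_at -0.097 to 0.022 and TCF4 212386_at -0.73 to 0.42. For GFP control against parental cells they were HES1 -1.07 to 1.55, TCF3 -0.063 to 0.10 and TCF4 -0.73 to 0.62, and for MIST1 against parental cells HES1 -1.05 to 1.57, TCF3 -0.10 to 0.063 and TCF4 -0.89 to 0.47. For MIST1 against GFP control, a fit without 1 of these 4 arrays draws on the parental arrays through the shared line term. A difference between the lines in the response to transfection then enters the range. Within the lines HES1 203395_s_at gave 0.08 in AGS and -0.04 in HGC-27 for MIST1 over GFP control. After quantile normalization TCF3 213811_x_at for GFP control against parental cells turned to -0.0054. Other causes of these changes were not tested.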
